A study of Mus musculus with 9 samples.

Results

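The genes described here encode the subunits of voltage-gated and related potassium, sodium and calcium channels. They are all symbols of the count and FPKM tables that begin with Kcn or Cacn, or that are Scn followed by a number and a or b. Their number was 133 of 38197 symbols, of which 94 were potassium (Kcn), 13 sodium (Scn) and 26 calcium (Cacn) channel genes. The choice was by name and not by measured level. It therefore takes in inward rectifiers, leak channels, cytoplasmic and membrane auxiliary subunits and the AMPA receptor partners of the Cacng family, which are not voltage-gated pores themselves. It leaves out Scn2a1, the symbol under which these tables list the Nav1.2 gene, and that gene is given separately.

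Wild type mouse embryonic stem cells (ESCs) of strain 129 (line E14.1 in the methods of the study) were grown as a monolayer and exposed early to retinoic acid (RA) and the Smoothened agonist SAG, which directs them towards ventral hindbrain. Cells carrying Prominin-1, a surface protein of neural stem cells, were then isolated with magnetic beads at 4.5, 5.5 and 6.5 days in differentiation conditions (DDC), with 3 replicates at each time point and 9 libraries in all. A separate label field gives the days as 4, 5 and 6, and the names 4.5DDC, 5.5DDC and 6.5DDC of the sample titles are used here. All groups share genotype, line and treatment and differ, by their labels, in time alone. They come from 1 ESC line, and the methods of the study call its sample numbers biological replicates without stating what a replicate of these libraries was, so p-values measure the spread between these samples, which may be technical. Polyadenylated RNA was sequenced, with 11066568 to 25506193 counted reads per library. As a check on the sort, of 8 progenitor markers 1 rose, 1 fell and 6 did not pass. Sox2 (mean 82.1, 85.3 and 87.6 FPKM at the successive time points) and Nes did not pass, Prom1 itself rose (log2 fold change 1.19, standard error 0.18, adjusted p = 0.00363), Sox3 fell (log2 fold change -1.80, standard error 0.49, adjusted p = 0.033), and Hes5 did not pass (log2 fold change -2.1, standard error 0.66, adjusted p = 0.0522). Neuronal genes were also present: 11 of 12 listed neuron markers were found (Tubb3 was not analysed here), with a summed level of 255 to 690 FPKM at 4.5DDC, 221 to 841 at 5.5DDC and 462 to 1012 at 6.5DDC. Map2 and Syt1 rose among them and the other 9 did not pass the test. Of the other lists, 5 of 6 serotonergic markers and 3 of 5 radial glia and astrocyte markers rose from 4.5DDC to 6.5DDC, the motor neuron marker Isl1 fell (log2 fold change -2.44, standard error 0.31, adjusted p = 0.00173), the mesenchyme marker Twist1 rose (log2 fold change 0.74, standard error 0.19, adjusted p = 0.0276), and no oligodendrocyte, endothelial, microglial, muscle, endoderm or pluripotency marker passed.

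The replicate 1 libraries stood apart from the others at every time point. The neuron markers were lower in them by a median of 1.54 on the log2 scale than in the mean of replicates 2 and 3 (the difference was -1.54), and 10 of 11 were lowest in replicate 1 at all 3 time points. Among the 80 channel genes with enough counts to test, 33 (41.3%) were lowest in replicate 1 at all 3 time points, against 12.5% of all 14742 genes tested, and their median difference was -0.39 against 0.01. Of the other marker lists, the same median difference was 1.67 over the 4 tested endoderm markers and 1.19 over the 2 tested muscle markers. These are towards higher values in replicate 1. The difference was towards lower values for oligodendrocyte (-1.23), pluripotency (-1.22, 1 tested gene), motor neuron (-1.003), endothelial and microglial (-0.75) and mesenchyme (-0.73) markers. For serotonergic, radial glia and astrocyte, and progenitor markers it was -0.215, -0.083 and -0.00999. The counts of changed genes over all channel genes and over each class are therefore given with and without the replicate 1 libraries. The part of these markers in the results was not tested. In these bulk samples fewer cells of a type and less RNA per cell cannot be told apart.

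Voltage-gated channels open and close with the membrane potential. Sodium and calcium channels admit cations that depolarize the cell, and potassium channels let potassium out and return the membrane towards rest. Each channel is built from pore-forming subunits, encoded by the Kcna to Kcnd, Kcnq, Kcnh, Scn and Cacna1 genes among others, together with auxiliary subunits that set its trafficking, gating and inactivation. Neural stem cells have mostly leak and rectifier conductances, and the set of voltage-gated channels broadens as cells become neurons. T-type calcium channels, which open at low voltage, are known from immature neural cells.

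The large-conductance calcium- and voltage-activated potassium (BK) channel has 5 genes here, the pore gene Kcnma1 and the beta subunit genes Kcnmb1 to Kcnmb4. Its promoter sequences are shown because 3 of these genes moved together over time while Kcnmb4 did not, as described further on. Each window runs from 250 bases before to 50 bases after a RefSeq transcription start, read 5′ to 3′ on the gene's strand (GRCm38.p6, RefSeq), and capitals mark every CG dinucleotide, which reads the same on both strands. The windows are chr14:24004156-24004455 on the minus strand for Kcnma1, chr11:33962763-33963062 on the plus strand for Kcnmb1, chr3:31902453-31902752 on the plus strand for Kcnmb2 and chr10:116473474-116473773 on the minus strand for Kcnmb4.
Kcnma1: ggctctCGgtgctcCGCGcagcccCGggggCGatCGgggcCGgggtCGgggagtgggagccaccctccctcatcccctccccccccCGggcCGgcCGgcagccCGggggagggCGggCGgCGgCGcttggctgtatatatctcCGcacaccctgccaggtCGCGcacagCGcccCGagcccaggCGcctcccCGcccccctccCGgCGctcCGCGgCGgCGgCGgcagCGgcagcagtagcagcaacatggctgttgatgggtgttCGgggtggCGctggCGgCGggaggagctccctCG
Kcnmb1: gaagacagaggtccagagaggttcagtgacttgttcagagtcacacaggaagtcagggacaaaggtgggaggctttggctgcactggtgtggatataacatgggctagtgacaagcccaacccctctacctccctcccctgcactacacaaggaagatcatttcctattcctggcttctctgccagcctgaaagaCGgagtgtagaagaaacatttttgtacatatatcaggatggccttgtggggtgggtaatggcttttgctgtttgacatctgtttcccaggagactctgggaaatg
Kcnmb2: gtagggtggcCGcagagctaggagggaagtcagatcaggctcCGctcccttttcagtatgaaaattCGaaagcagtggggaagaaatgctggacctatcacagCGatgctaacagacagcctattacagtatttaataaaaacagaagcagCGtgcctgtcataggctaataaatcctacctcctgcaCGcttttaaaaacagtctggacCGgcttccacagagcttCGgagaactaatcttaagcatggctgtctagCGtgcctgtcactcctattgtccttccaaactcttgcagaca
Kcnmb4: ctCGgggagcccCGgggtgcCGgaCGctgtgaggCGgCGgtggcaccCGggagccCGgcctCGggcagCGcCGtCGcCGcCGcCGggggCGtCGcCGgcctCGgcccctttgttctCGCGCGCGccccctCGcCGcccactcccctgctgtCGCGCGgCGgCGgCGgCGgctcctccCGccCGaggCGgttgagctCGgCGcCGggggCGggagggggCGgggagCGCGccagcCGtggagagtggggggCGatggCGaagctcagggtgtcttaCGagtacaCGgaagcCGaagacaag
The Kcnma1 window holds 36 CG and the Kcnmb4 window 48, whereas that of Kcnmb2 holds 9 and that of Kcnmb1 holds 1. Of 32851 windows of this length in the RefSeq table, 94.6% hold at least 1 CG and the median is 7, and 6.23% hold 36 or more. The genes that rose thus include CG-rich and CG-poor starts, and Kcnmb4 has the richest window of these. Windows were found for 98 of the 133 channel genes, and their median was 9 CG.

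Levels between genes are compared in FPKM (fragments per kilobase of transcript, scaled to library size). CPM (counts scaled to library size, without length) are used to compare libraries for 1 gene. Of the 133 genes, 42 had a mean of at least 1 FPKM over the 9 libraries, made up of 23 potassium, 5 sodium and 14 calcium channel genes. Sodium channel genes summed to 10.7, 12.9 and 10.02 FPKM in replicates 1, 2 and 3 at 4.5DDC, 17.7, 29.5 and 27.7 at 5.5DDC, and 23, 60.2 and 69.9 at 6.5DDC, so that each replicate number rose at each step. A large part of the sodium sum was Scn3a alone, with means of 2.76, 9.82 and 23.4 FPKM. Potassium channel genes summed to 60.5 ± 12.9 (SD, n = 3), 87.6 ± 10.1 and 105 ± 32.8 FPKM. In replicate 1 they went from 76.2 to 72.6 FPKM over the second day, but from 287 to 314 in CPM, and in CPM the potassium sum was higher at each step in every replicate number. Calcium channel genes had their highest mean at the middle time point, with 116 ± 22.6, 199 ± 16.2 and 156 ± 61.3 FPKM. Their single sums were 128, 130 and 89.9 FPKM at 4.5DDC, 217, 187 and 191 at 5.5DDC, and 107, 136 and 225 at 6.5DDC. Every library of 5.5DDC was above every one of 4.5DDC, whereas over the second day replicates 1 and 2 went down and replicate 3 went up to the highest calcium sum of all. No test of a difference between classes was made. At 6.5DDC the spread between libraries was widest in each class, and replicate 1 was lowest in all of them.

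**Figure D1:**
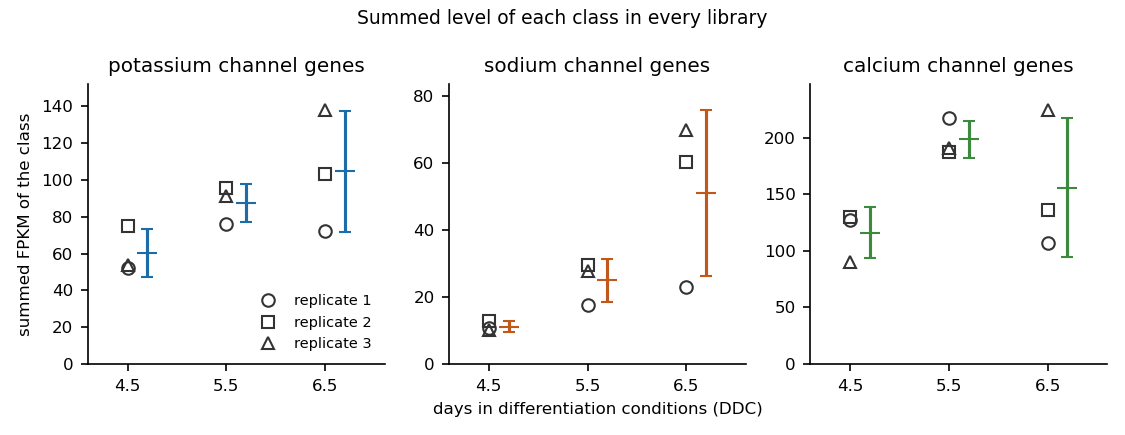
Summed FPKM (y axis) of the potassium, sodium and calcium channel genes at 4.5, 5.5 and 6.5DDC (x axis). Open symbols are single libraries by replicate number, and horizontal dashes with error bars are the mean and SD of 3 libraries. The sodium sum rose at both steps in every replicate number, from 10.02 to 12.9 FPKM at 4.5DDC to 23 to 69.9 FPKM at 6.5DDC. Single genes make up much of the sodium sum (Scn3a) and of the calcium peak (Cacna1g and Cacna1h).

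The highest single levels belonged to calcium channel genes. Cacna1g and Cacna1h, the pore genes of the T-type channels Cav3.1 and Cav3.2, ranked first and second of all 133 genes, with means of 45.0 and 27.8 FPKM over the 9 libraries. Cacna1g measured 41.3, 33.3 and 22.3 FPKM at 4.5DDC, 77.4, 57.4 and 61.0 at 5.5DDC, and 18.6, 26 and 67.2 at 6.5DDC, the values being given in the order of replicates 1, 2 and 3 here and below. Every 5.5DDC library lay above every 4.5DDC library, and the 6.5DDC libraries overlapped both. Cacna1h had the same shape, with 22.8, 13.4 and 13.3 FPKM at 4.5DDC, 54.7, 34.9 and 30.6 at 5.5DDC, and 25.7, 22.2 and 32.9 at 6.5DDC. By an exact two-sided permutation test on FPKM, which with 3 libraries against 3 cannot give a p below 0.1, p was 0.1 for the difference from 4.5DDC to 5.5DDC in both genes, and 0.9 for Cacna1g and 0.2 for Cacna1h from 4.5DDC to 6.5DDC. In the count model neither gene passed the test for any pair of time points (for 4.5DDC to 5.5DDC, Cacna1g: log2 fold change 0.94, standard error 0.29, adjusted p = 0.206). With the replicate 1 libraries left out, both passed for 4.5DDC to 6.5DDC (Cacna1g: log2 fold change 0.69, adjusted p = 0.0473, Cacna1h: log2 fold change 0.93, adjusted p = 0.0338).

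Below the T-type pores came the auxiliary subunit gene Cacnb3 (mean 18.1 FPKM), the AMPA receptor partners Cacng4 (15.7) and Cacng7 (12.8), and then the sodium channel gene Scn3a (12), which encodes Nav1.3, a form known from embryonic brain. These means are over all time points, and the place of a gene that changed can differ at each. Scn3a had means of 2.76, 9.82 and 23.4 FPKM at 4.5, 5.5 and 6.5DDC. The difference between neighbours in this order was often within their spread: Cacng4 ranged from 9.57 to 21.0 FPKM and Cacng7 from 7.51 to 18.0. The potassium channel genes with high means included Kcnh2 (7.76 FPKM), the ERG channel gene, Kcnd3 (7.51) and Kcnmb2 (3.79). Kcnh2 did not pass the test between 4.5DDC and 6.5DDC (log2 fold change -0.69, standard error 0.34, adjusted p = 0.174), with 6.72, 12.5 and 4.72 FPKM at 4.5DDC and 3.96, 3.39 and 7.98 at 6.5DDC. Among sodium channel genes Scn3a, Scn3b (7.76), Scn8a (3.14) and Scn9a (2.29) led. Scn8a, the gene of Nav1.6, measured 3.22, 3.43 and 2.98 FPKM at 4.5DDC, 2.99, 3.29 and 3.54 at 5.5DDC, and 1.85, 3.22 and 3.78 at 6.5DDC and did not pass with 9 libraries (log2 fold change 0.19, standard error 0.30, adjusted p = 0.683), though it passed without the replicate 1 libraries (log2 fold change 0.55, adjusted p = 0.0472). At the other end, 53 of the 133 genes (42 potassium, 3 sodium and 8 calcium) had too few counts to be tested. For 5 of them, all potassium channel genes, no read was counted in any library, and a count of 0 allows up to 3 counts per library, between 0.118 and 0.271 CPM. The highest mean among the untested genes was 0.378 FPKM, for Kcnrg.

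**Figure D2:**
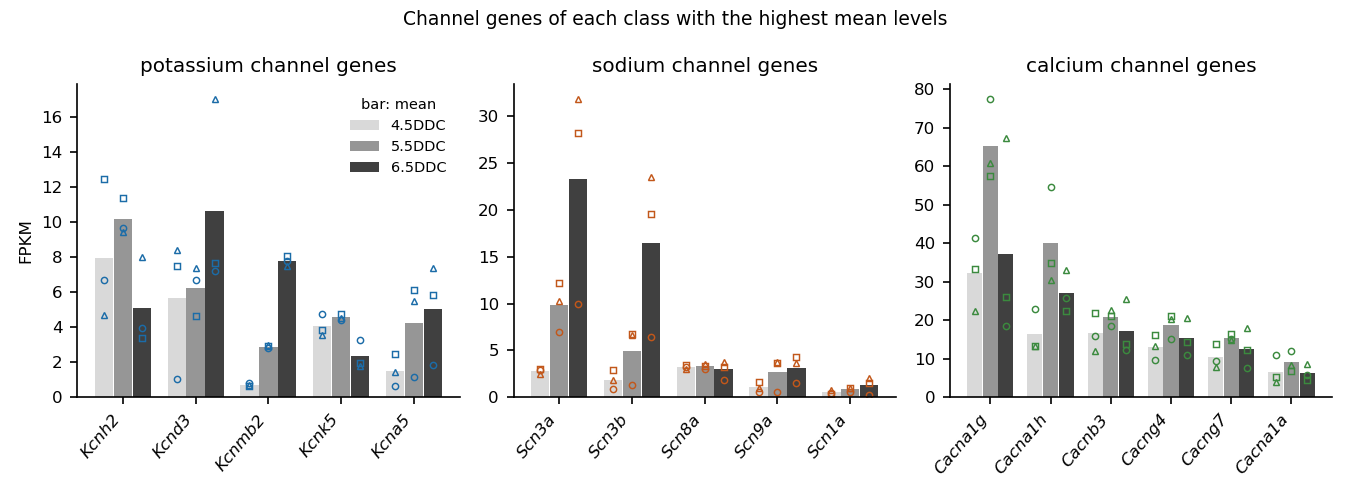
FPKM (y axis) of 5 or 6 genes with the highest mean levels reported in each class (x axis). Bars are means of 3 libraries at 4.5, 5.5 and 6.5DDC, and circles, squares and triangles are replicates 1, 2 and 3. Cacna1g and Cacna1h peak at 5.5DDC, with means of 65.3 and 40.0 FPKM, while Scn3a, Scn3b and Kcnmb2 have their highest means at 6.5DDC.

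Between 4.5DDC and 6.5DDC the channel genes changed mostly upwards. Of 80 genes tested, 23 were higher and 2 lower at 6.5DDC (adjusted p under 0.05, edgeR quasi-likelihood test, Benjamini-Hochberg adjustment over all 14742 genes), and 55 did not pass. These are 28.8% and 2.5% of the tested channel genes, against 9.21% higher and 9.53% lower among all genes. Passing the filter on low counts can itself favour genes that are high at 1 time point. The median log2 fold change was 0.92 over the 80 channel genes and 0.00 over all genes. By class, 16 of 52 potassium channel genes were higher (30.8%) and 2 lower, 4 of 10 sodium channel genes were higher (40.0%) and none lower, and 3 of 18 calcium channel genes were higher (16.7%) and none lower. The class medians were close to each other, at 0.91 for potassium, 1.08 for sodium and 0.89 for calcium. For all 23 genes that rose, the 6.5DDC libraries lay above the 4.5DDC libraries in CPM, and thus also within each of the 3 replicate numbers. These genes were chosen by their rise in the same libraries, so this is a description only. In CPM, the 6.5DDC libraries lay wholly above the 4.5DDC libraries for 26 channel genes (32.5%) and wholly below for 6 (7.5%), where 17.8% and 17.7% of all tested genes did so.

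The count depended on single libraries and on the replicate 1 set. With the replicate number as a block, 34 were higher and 4 lower, where 13% and 10.2% of all genes were, though same-numbered libraries of these time points did not deviate together for every number. When 1 library at a time was dropped, 10 to 35 channel genes passed. Without replicate 2 of 4.5DDC 10 were higher and none lower, where 3.36% of all genes were higher and 4.25% lower, and without replicate 2 of 6.5DDC the counts were the same, where 3.86% and 3.7% were. Without replicate 3 of 4.5DDC 14 were higher and 2 lower (5.81% and 7.63% of all genes), and without replicate 3 of 6.5DDC 12 and 2 (6.66% and 7.25%). The most passed without replicate 1 of 6.5DDC, 32 higher and 3 lower (10.4% and 10.3%). Without replicate 1 of 4.5DDC the counts were 15 and 2 (7.22% and 7.61%). Without 1 library of 5.5DDC they were 29 and 3 for replicate 1 (10.7% and 10.2%), 19 and 2 for replicate 2 (6.39% and 6.56%) and 19 and 2 for replicate 3 (6.59% and 6.84%). With all 3 replicate 1 libraries left out, a choice made after seeing the data, 44 of 81 genes were higher and 4 lower, where 16.5% and 14.8% of all genes were. All 25 genes called with 9 libraries were among these 48. By class, the genes higher then numbered 27 of 54 for potassium, 7 of 9 for sodium and 10 of 18 for calcium. The 21 added risers included the T-type genes, Cacna1b, Cacna1e and Cacna2d1 for calcium, Scn8a and Scn9a for sodium, and Kcna5, Kcnc1 and Kcnip1 for potassium, while Kcnk5 and Kcnj12 were added to those that fell.

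**Figure D3:**
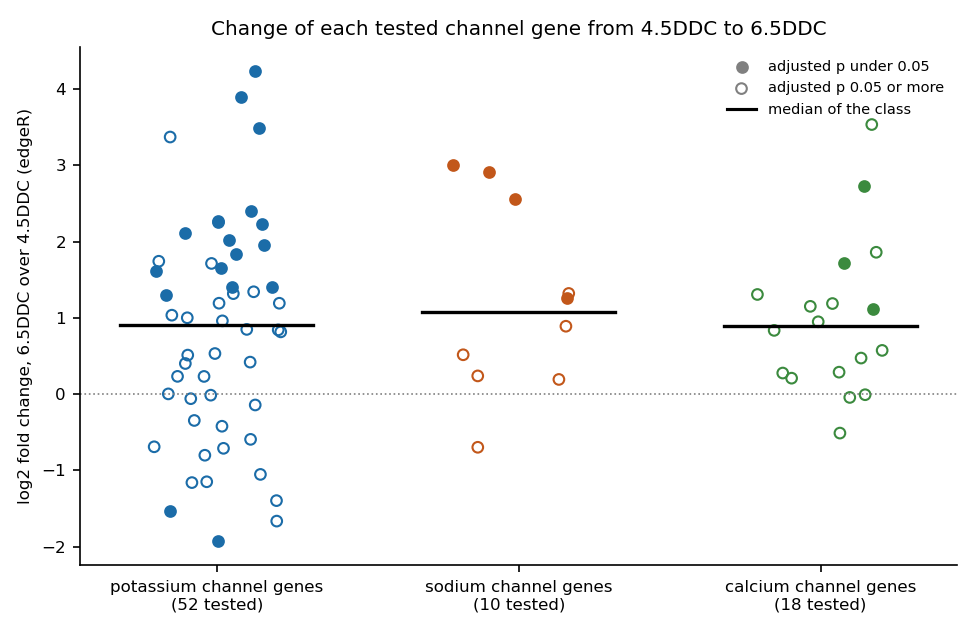
Log2 fold change from 4.5DDC to 6.5DDC (y axis) of each tested potassium, sodium and calcium channel gene (x axis, spread sideways for legibility). Filled points have an adjusted p under 0.05 in edgeR, open points do not, and black lines are class medians, at 0.91, 1.08 and 0.89. The 2 filled points below 0 are the potassium channel genes Kcng1 and Kcnip3.

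Over the single days few genes passed. From 4.5DDC to 5.5DDC 1 of 80 channel genes was higher (1.25%) and none lower, and 0.0611% of all genes were higher and 0.0136% lower. At an unadjusted p under 0.05 there were 20 channel genes and 15.4% of all genes. From 5.5DDC to 6.5DDC 1 was again higher and none lower, and 0.0271% of all genes were higher and 0.197% lower. At an unadjusted p under 0.05 there were then 21 channel genes and 18.5% of all genes. The 1 gene was Kcnmb2 in both. The median log2 fold changes were 0.44 and 0.34. With the replicate number as a block, 6 channel genes rose over the first day, namely Cacnb4, Kcna1, Kcna5, Kcnd3, Kcnmb2 and Scn3a, where 1.27% of all genes were higher and 0.170% lower. In the same fit 8 rose over the second day, among them Cacna2d1, Cacnb4, Kcnd3, Kcnmb2, Kcnq5, Scn3a and Scn3b, where 0.787% of all genes were higher and 0.536% lower. Without the replicate 1 libraries the counts were 16 higher and none lower of 81 over the first day, where 2.42% of all genes were higher and 0.895% lower, and 18 higher and 2 lower over the second, where 2.46% and 2.51% were. DESeq2 called 8 channel genes higher and none lower over the first day, where 2.24% of all genes were higher and 1.57% lower, and 5 higher and 1 lower over the second, where 1.8% and 2.97% were.

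The change of the second day was also tested against that of the first. No gene of 14742 (0%) passed this test in edgeR, and DESeq2 also called none. Of the channel genes 6 had an unadjusted p under 0.05, and the lowest adjusted p among them was 0.760. The share of all genes under that unadjusted cut is not given here, so these 6 are listed as a description only. For 5 of these 6 the second day was the lower one: Cacna1g (difference of log2 changes -1.59), Cacna1h (-1.82), Kcnj11 (-2.68), Kcnj4 (-2.76) and Kcnk5 (-1.07). Kcnj11, which encodes the pore of the ATP-sensitive potassium channel, measured 1.04, 1.45 and 0.481 FPKM at 4.5DDC, 3.86, 3.57 and 3.25 at 5.5DDC, and 1.29, 1.45 and 2.93 at 6.5DDC, so its 5.5DDC libraries lay above all others. Kcnq5 was the sixth, with the larger change in the second day (1.6).

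Among potassium channels, 3 of the 4 tested BK subunit genes rose (75%), where 9.21% of all genes were higher and 9.53% lower. Kcnmb2, whose beta2 subunit inactivates the channel, measured 0.788, 0.616 and 0.670 FPKM at 4.5DDC, 2.78, 2.92 and 2.97 at 5.5DDC, and 7.80, 8.10 and 7.48 at 6.5DDC. The 3 time points did not overlap, and the spread within each was small beside the steps between them. This gene was 11.2 times higher at 6.5DDC than at 4.5DDC (log2 fold change 3.49, standard error 0.20, adjusted p = 6e-05), and on this span the call held without any 1 library (highest adjusted p = 0.00131). Its call over the first day was lost without replicate 3 of 4.5DDC or of 5.5DDC (adjusted p up to 0.0697), and that over the second day in 6 of 9 such fits, those without replicate 1 of 4.5DDC, any replicate of 5.5DDC, or replicate 2 or 3 of 6.5DDC (adjusted p up to 0.253). The pore gene Kcnma1 measured 0.468, 0.323 and 0.210 FPKM at 4.5DDC, 1.31, 0.489 and 0.530 at 5.5DDC, and 1.52, 1.27 and 1.35 at 6.5DDC. Its 6.5DDC libraries were all above those of 4.5DDC, a 4.05-fold rise (log2 fold change 2.02, standard error 0.41, adjusted p = 0.0103), while replicate 1 of 5.5DDC alone was already at the 6.5DDC level. Kcnmb1, which is best known from smooth muscle, measured 1.65, 0.774 and 0.587 FPKM at 4.5DDC, 3.91, 1.56 and 1.34 at 5.5DDC, and 3.63, 3.10 and 2.77 at 6.5DDC and rose (log2 fold change 1.66, standard error 0.47, adjusted p = 0.0381). That call was lost without replicate 2 or 3 of 4.5DDC or any replicate of 6.5DDC (adjusted p from 0.0563 to 0.132). Kcnmb4, the main beta subunit of brain, had the highest level of these genes at 4.5DDC and did not pass the test (log2 fold change -0.42, standard error 0.23, adjusted p = 0.226), with 2.84, 3.78 and 3.04 FPKM at 4.5DDC and 2.26, 1.78 and 2.76 at 6.5DDC, so its 6.5DDC libraries lay below those of 4.5DDC. Among the beta subunit genes the order of the means was thus Kcnmb4 (3.22 ± 0.496 FPKM), Kcnmb1 (1.0 ± 0.569) and Kcnmb2 (0.691 ± 0.0880) at 4.5DDC, and Kcnmb2 (7.79 ± 0.310), Kcnmb1 (3.17 ± 0.431) and Kcnmb4 (2.26 ± 0.492) at 6.5DDC (SD, n = 3). No read was counted for Kcnmb3.

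The Kv1 to Kv4 pore genes had 11 of 17 members tested, of which 3 rose (27.3%) and none fell, where 9.21% of all genes were higher and 9.53% lower. Kcna1 encodes Kv1.1, a low-threshold channel of axons, and measured 0.0622, 0.107 and 0.0768 FPKM at 4.5DDC, 0.101, 0.723 and 0.742 at 5.5DDC, and 0.299, 1.95 and 1.43 at 6.5DDC. Replicates 2 and 3 were already higher at 5.5DDC than any library at 4.5DDC and replicate 1 was lowest at each time point (log2 fold change 3.90, standard error 0.85, adjusted p = 0.0141). Kcna6, the gene of Kv1.6, measured 1.21, 1.68 and 1.78 FPKM at 4.5DDC and 2.54, 5.37 and 6.5 at 6.5DDC and rose 2.65-fold (log2 fold change 1.41, standard error 0.38, adjusted p = 0.0301). The call for Kcna1 was lost without replicate 2 of 4.5DDC or replicate 2 of 6.5DDC (adjusted p from 0.0508 to 0.0522) and that for Kcna6 without any replicate of 4.5DDC or replicate 2 or 3 of 6.5DDC (adjusted p from 0.0501 to 0.0972). Kcnd3, the gene of the A-type channel Kv4.3, measured 9.43, 11.6 and 14.3 CPM at 4.5DDC, 18.6, 31.2 and 31.4 at 5.5DDC, and 37.2, 66.5 and 69.1 at 6.5DDC. Each replicate number rose at each step in these counts (log2 fold change 2.28, standard error 0.30, adjusted p = 0.00206). Its FPKM did not follow: they were 1.06, 7.49 and 8.41 at 4.5DDC and 7.19, 7.66 and 17.0 at 6.5DDC, the groups overlapped, and limma on log2(FPKM + 1) gave an adjusted p of 0.241. The ratio of FPKM to CPM for this gene differed 5.77-fold between libraries with at least 10 counts each, the most of any channel gene so compared. Among those that did not pass were Kcna5 and Kcnc1.

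Of 7 tested auxiliary subunit genes of these pores, 2 rose, 1 fell and 4 did not pass, where 9.21% of all genes were higher and 9.53% lower. The KChIP proteins, encoded by Kcnip1 to Kcnip4, bind the Kv4 pores, and Kcnip3 is also known as a calcium-regulated transcriptional repressor. Kcnip4 measured 0.0783, 0.410 and 0.381 FPKM at 4.5DDC, 0.0620, 2.76 and 2.64 at 5.5DDC, and 1.6, 5.73 and 6.56 at 6.5DDC. It was low at 4.5DDC and rose (19.0-fold; log2 fold change 4.24, standard error 1.2, adjusted p = 0.0369), with replicate 1 at 5.5DDC still at its 4.5DDC level. The size of this rise depended on single libraries, with a log2 fold change of 3.63 without replicate 1 of 4.5DDC and of 4.90 without replicate 3 of 4.5DDC. Kcnip3 went the other way, from 2.14, 2.55 and 1.82 FPKM at 4.5DDC to 0.353, 0.628 and 1.31 at 6.5DDC, with no overlap (log2 fold change -1.53, standard error 0.39, adjusted p = 0.0255). The call for Kcnip4 was lost without any replicate of 4.5DDC or replicate 2 or 3 of 5.5DDC or replicate 2 or 3 of 6.5DDC (adjusted p from 0.051 to 0.108) and that for Kcnip3 without replicate 2 of 4.5DDC or replicate 2 of 6.5DDC (adjusted p from 0.0843 to 0.0962). Kcnip1 had a mean of 2.51 FPKM and did not pass (log2 fold change 1.19, standard error 0.68, adjusted p = 0.239). Kcnab1, whose Kv beta1 subunit binds Kv1 pores, rose from 0.125, 0.0507 and 0.0979 FPKM to 0.502, 0.583 and 0.412 (log2 fold change 2.24, standard error 0.65, adjusted p = 0.0409), a call lost without any replicate of 4.5DDC or replicate 3 of 5.5DDC or replicate 2 or 3 of 6.5DDC (adjusted p from 0.0558 to 0.138). Kcnab2, the more abundant Kv beta gene, did not pass (log2 fold change -0.14, standard error 0.41, adjusted p = 0.833).

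The silent subunits, which do not form channels alone but join Kv2 pores, had 5 genes tested. Of these 1 rose (20%), 1 fell (20%) and 3 did not pass, where 9.21% of all genes were higher and 9.53% lower. Kcnv1 rose from 0.156, 0.250 and 0.435 FPKM to 0.541, 1.05 and 1.05 (log2 fold change 1.62, standard error 0.48, adjusted p = 0.0419). Kcng1 fell from 0.562, 1.29 and 0.720 FPKM to 0.311, 0.105 and 0.268 (log2 fold change -1.93, standard error 0.46, adjusted p = 0.0193). In neither gene did the libraries of these time points overlap. The call for Kcnv1 was lost without replicate 1 or 2 of 4.5DDC or replicate 2 or 3 of 5.5DDC or replicate 2 or 3 of 6.5DDC (adjusted p from 0.0541 to 0.135), and that for Kcng1 without replicate 2 of 4.5DDC or replicate 2 of 6.5DDC (adjusted p from 0.063 to 0.0765).

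Kv7 channels carry the M-current, which restrains repetitive firing. Kcnq5 measured 0.0992, 0.243 and 0.196 FPKM at 4.5DDC, 0.223, 0.259 and 0.336 at 5.5DDC, and 0.812, 0.528 and 0.714 at 6.5DDC, so that its 6.5DDC libraries lay above all others and most of its rise came in the second day (log2 fold change 1.83, standard error 0.39, adjusted p = 0.0122). That call held in every fit that left out 1 library. Kcnh7, an ERG family gene, rose in counts at a low level (log2 fold change 2.40, standard error 0.73, adjusted p = 0.0467), from 0.168, 0.711 and 0.625 CPM to 0.856, 4.07 and 2.89. Its FPKM overlapped, and the call was lost without any replicate of 4.5DDC or replicate 2 or 3 of 5.5DDC or replicate 2 or 3 of 6.5DDC (adjusted p from 0.0633 to 0.167).

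Small-conductance calcium-activated (SK) channels couple calcium entry to an afterhyperpolarization. Kcnn2 rose from 0.535, 0.757 and 0.671 FPKM to 1.2, 1.70 and 2.33 (log2 fold change 1.41, standard error 0.36, adjusted p = 0.0245) and Kcnn3 from 5.72, 4.18 and 3.34 CPM to 6.77, 12.8 and 13.2 (log2 fold change 1.30, standard error 0.31, adjusted p = 0.0195). For Kcnn3 the FPKM overlapped, at 1.6, 2.19 and 1.47 and 1.84, 3.40 and 3.56. The call for Kcnn2 was lost without replicate 1 or 2 of 4.5DDC or replicate 2 or 3 of 6.5DDC (adjusted p from 0.0701 to 0.073) and that for Kcnn3 without replicate 2 or 3 of 4.5DDC or replicate 2 or 3 of 6.5DDC (adjusted p from 0.0516 to 0.0749). Kcnn1 did not pass (log2 fold change 0.23, standard error 0.27, adjusted p = 0.571).

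Channels without a voltage sensor contributed 2 of the firm rises. Kcnj2 encodes Kir2.1, an inward rectifier that holds the resting potential, and measured 1.26, 0.499 and 0.939 FPKM at 4.5DDC, 2.63, 2.02 and 2.1 at 5.5DDC, and 5.04, 3.74 and 2.99 at 6.5DDC, with no overlap between 4.5DDC and either later time point (log2 fold change 2.11, standard error 0.34, adjusted p = 0.00466). Kcnk2 encodes the mechanosensitive leak channel TREK-1 and measured 1.42, 0.922 and 1.05 FPKM at 4.5DDC, 3.55, 1.73 and 2.6 at 5.5DDC, and 3.48, 4.60 and 5.32 at 6.5DDC (log2 fold change 1.96, standard error 0.30, adjusted p = 0.00375). Both calls held without any 1 library, with adjusted p up to 0.0185 for Kcnj2 and 0.0206 for Kcnk2. Kcnk5, the gene of the leak channel TASK-2, was lower in all 6.5DDC libraries than in any at 4.5DDC, with 4.75, 3.84 and 3.57 FPKM at 4.5DDC and 3.24, 1.95 and 1.79 at 6.5DDC, and missed the threshold (log2 fold change -0.80, standard error 0.25, adjusted p = 0.0541). The other tested Kir and leak channel genes did not pass with 9 libraries. Without the replicate 1 libraries Kcnk3 (log2 fold change 3.64, adjusted p = 0.00169), Kcnj5 (log2 fold change 1.38, adjusted p = 0.00506) and Kcnj8 (log2 fold change 2.23, adjusted p = 0.0147) were higher, and Kcnk5 (log2 fold change -1.02, adjusted p = 0.00691) and Kcnj12 (log2 fold change -1.57, adjusted p = 0.0116) lower.

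**Figure D4:**
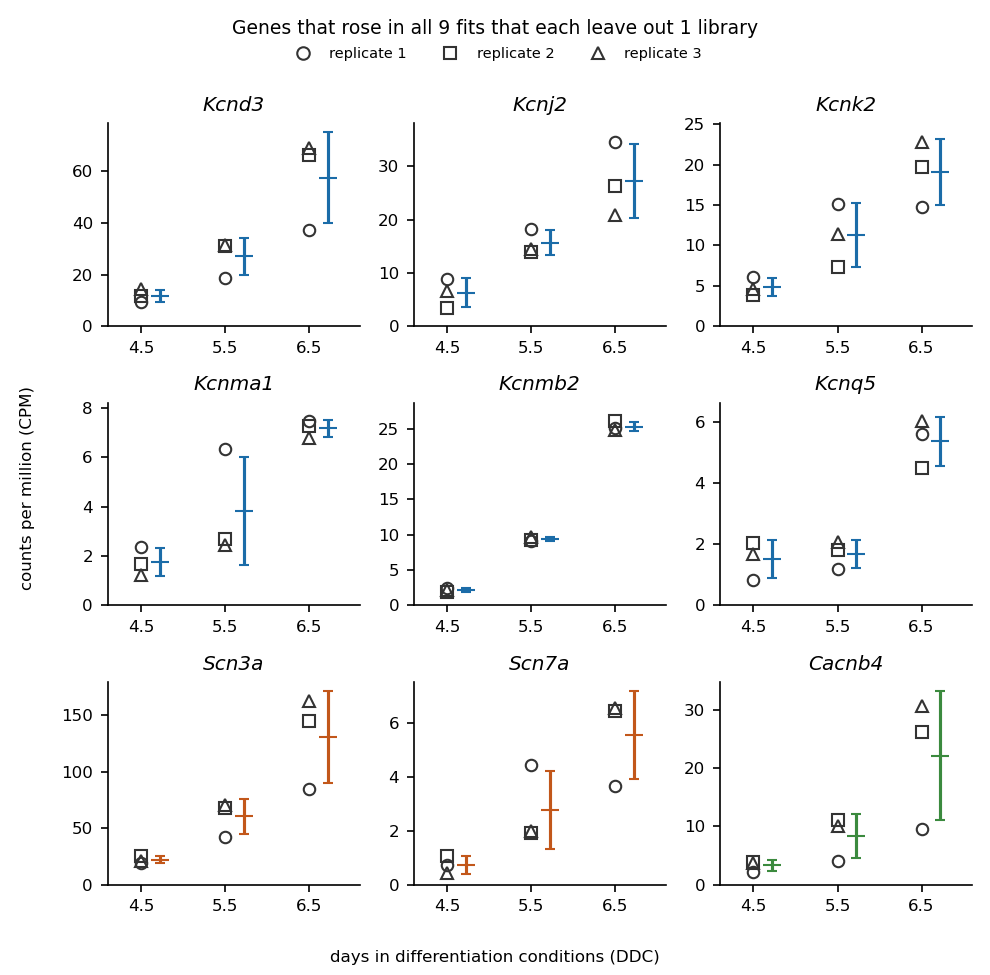
CPM (y axes, each from 0) at 4.5, 5.5 and 6.5DDC (x axes) of the 9 channel genes whose rise from 4.5DDC to 6.5DDC passed whichever of the 9 libraries was dropped. Open symbols are libraries by replicate number, and dashes with bars are the mean and SD of 3 libraries. Kcnmb2 has tightly grouped libraries at each time point, and in Kcnd3, Scn3a and Cacnb4 replicate 1 lies lowest at every time point.

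Sodium channel genes were few and led by Scn3a. It measured 2.9, 2.96 and 2.43 FPKM at 4.5DDC, 7.01, 12.2 and 10.3 at 5.5DDC, and 9.998, 28.2 and 31.8 at 6.5DDC. The 6.5DDC libraries lay far above those of 4.5DDC, 5.91-fold in the fit (log2 fold change 2.56, standard error 0.27, adjusted p = 0.00104), and in FPKM replicate 1 was lowest at 5.5DDC and 6.5DDC. Scn7a, whose product Nax senses sodium and is not opened by voltage, measured 0.0765, 0.113 and 0.0436 FPKM at 4.5DDC, 0.467, 0.201 and 0.211 at 5.5DDC, and 0.392, 0.674 and 0.689 at 6.5DDC and rose from a level near 0 (log2 fold change 2.92, standard error 0.47, adjusted p = 0.0046). Both calls held without any 1 library. Pore genes that did not pass included Scn9a (log2 fold change 1.32), Scn1a (0.52), Scn8a (0.19) and Scn4a (-0.70). Scn9a, the gene of Nav1.7, showed the gap between replicates plainly, with 0.544, 1.61 and 1.01 FPKM at 4.5DDC, 0.574, 3.69 and 3.73 at 5.5DDC, and 1.52, 4.29 and 3.65 at 6.5DDC. Without the replicate 1 libraries it passed (log2 fold change 1.27, adjusted p = 0.00369).

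The beta subunits of sodium channels anchor the pores and modulate their gating. Scn3b measured 0.879, 2.87 and 1.86 FPKM at 4.5DDC, 1.29, 6.74 and 6.65 at 5.5DDC, and 6.39, 19.6 and 23.5 at 6.5DDC and rose 8.04-fold (log2 fold change 3.01, standard error 0.67, adjusted p = 0.015), a call lost without replicate 2 of 6.5DDC (adjusted p = 0.052). Scn2b rose from 0.413, 0.446 and 0.250 FPKM to 0.602, 0.912 and 1.14 (log2 fold change 1.26, standard error 0.32, adjusted p = 0.0242), a call lost without any replicate of 4.5DDC or replicate 2 or 3 of 6.5DDC (adjusted p from 0.05 to 0.079). Scn4b did not pass (log2 fold change 0.24, standard error 0.75, adjusted p = 0.848). Scn2a1, listed outside the symbols chosen by name, measured 0.626, 0.641 and 0.677 FPKM at 4.5DDC, 0.844, 2.43 and 1.64 at 5.5DDC, and 1.25, 4.05 and 5.13 at 6.5DDC and rose as well (log2 fold change 2.38, standard error 0.64, adjusted p = 0.0307). In GENCODE M21 (GRCm38) it lies beside Scn3a on chromosome 2, Scn3a at chr2:65457118-65567627 on the minus strand and Scn2a1 at chr2:65620771-65767447 on the plus strand, and Scn1a (chr2:66270778-66440840), Scn9a (chr2:66480080-66634962) and Scn7a (chr2:66673425-66784914) follow on the minus strand. Within this cluster Scn3a, Scn2a1 and Scn7a rose and Scn1a and Scn9a did not pass.

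Among calcium channels the rises were in 1 pore gene and 2 beta subunit genes, none of them among the 6 calcium channel genes with the highest means. Cacna1d, the gene of the L-type channel Cav1.3, measured 0.411, 0.206 and 0.153 FPKM at 4.5DDC, 0.438, 0.308 and 0.294 at 5.5DDC, and 0.463, 0.813 and 1.24 at 6.5DDC, and its 6.5DDC libraries lay above the others (log2 fold change 1.71, standard error 0.42, adjusted p = 0.0212). The call was lost without replicate 2 or 3 of 4.5DDC or replicate 2 or 3 of 6.5DDC (adjusted p from 0.0601 to 0.0833). Cacnb4 measured 0.213, 0.376 and 0.365 FPKM at 4.5DDC, 0.712, 1.07 and 1.0 at 5.5DDC, and 1.6, 5.97 and 2.95 at 6.5DDC and rose 6.65-fold (log2 fold change 2.73, standard error 0.50, adjusted p = 0.00683), a call that held without any 1 library. Cacnb2 rose from 5.68, 3.94 and 3.3 FPKM to 11, 8.35 and 9.28 (log2 fold change 1.11, standard error 0.25, adjusted p = 0.0149), a call lost without replicate 2 of 4.5DDC (adjusted p = 0.064). These beta subunits are cytoplasmic and bring the pores to the membrane. Cacnb3, the most abundant of them, did not pass (log2 fold change -0.01, standard error 0.28, adjusted p = 0.986), nor did Cacnb1 (log2 fold change 0.84, standard error 0.42, adjusted p = 0.182).

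Of the other pore genes Cacna1e, the R-type gene, measured 0.312, 0.494 and 0.564 FPKM at 4.5DDC and 0.586, 2.32 and 2.18 at 6.5DDC and missed the threshold (log2 fold change 1.86, standard error 0.63, adjusted p = 0.0664), although the 6.5DDC libraries lay above those of 4.5DDC. Cacna1b, the N-type gene, had a log2 fold change of 0.95 (adjusted p = 0.13). Cacna1a, the P/Q-type gene, did not pass (log2 fold change -0.04, standard error 0.33, adjusted p = 0.937), nor did Cacna1c, the L-type gene of Cav1.2 (log2 fold change -0.51, standard error 0.26, adjusted p = 0.186). None of the alpha2delta genes or of the Cacng genes passed with 9 libraries, while without the replicate 1 libraries Cacng2 (log2 fold change 3.34, adjusted p = 0.0011), Cacna2d3 (log2 fold change 1.53, adjusted p = 0.0154) and Cacna2d1 did. Cacna2d1, which encodes the alpha2delta subunit bound by gabapentin, measured 2.37, 5.59 and 5.65 FPKM at 4.5DDC, 1.93, 7.46 and 6.84 at 5.5DDC, and 4.27, 12.9 and 13.5 at 6.5DDC. Replicate 1 was the lowest library at each time point (log2 fold change 1.15, standard error 0.56, adjusted p = 0.169), and without the replicate 1 libraries the gene passed (log2 fold change 1.19, adjusted p = 0.000924).

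Relative to the replicate 1 gap the 23 genes that rose fell along a wide range. The log2 difference of replicate 1 from the mean of replicates 2 and 3 averaged -2.97 for Kcnip4 over the 3 time points, -1.87 for Kcna1, -1.70 for Scn3b, -1.56 for Kcnh7 and -1.19 for Cacnb4, beside the neuron marker median of -1.54. At the other end were Kcnmb1 (1.01), Kcnma1 (0.68), Kcnj2 (0.61), Kcnab1 (0.52) and Cacnb2 (0.51), which were on average higher in replicate 1, and Kcnmb2 (0.08) was even. Of the 23, 10 were lowest in replicate 1 at all 3 time points. The rise itself was present within replicate 1 at both ends of this range, with log2 differences in CPM between 4.5DDC and 6.5DDC of 4.41, 4.01 and 3.76 in replicates 1, 2 and 3 for Kcnip4 and 1.70, 2.05 and 2.21 for Kcnma1. Both genes were chosen for their rise over all 9 libraries, those of replicate 1 among them.

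**Figure D5:**
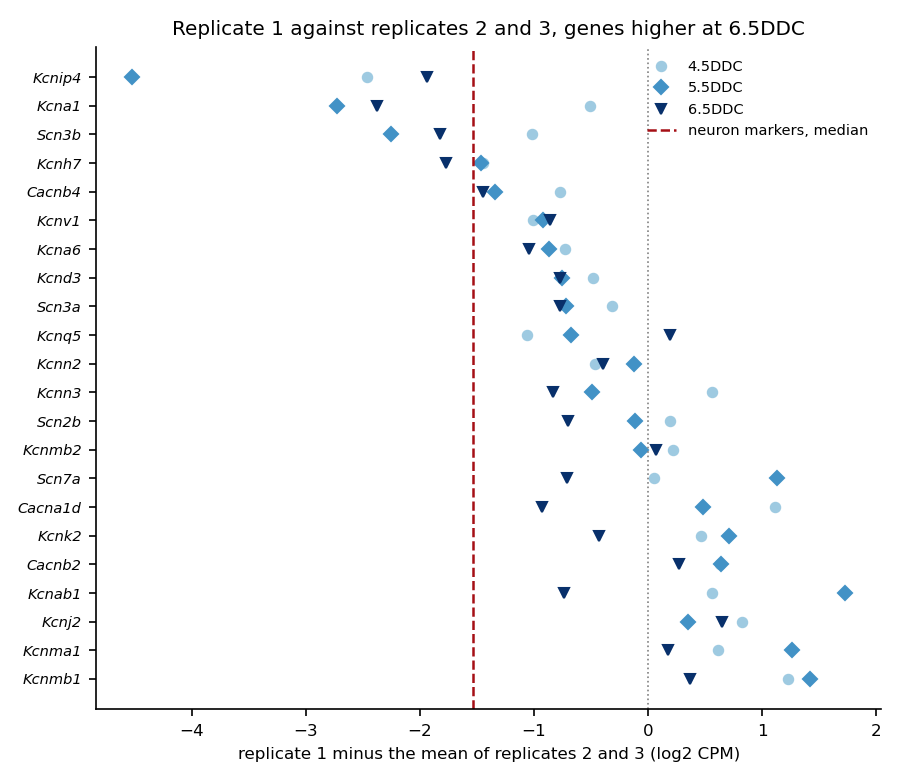
Difference in log2 CPM between replicate 1 and the mean of replicates 2 and 3 (x axis) at each time point (symbols) for 22 of the 23 channel genes higher at 6.5DDC than at 4.5DDC (y axis, ordered by the mean difference). The dashed line is the median of 11 neuron markers, at -1.54. The means over the 3 time points of Kcnip4, Kcna1, Scn3b and Kcnh7 (-2.97, -1.87, -1.70 and -1.56) lie left of it. At 4.5DDC, however, Kcna1, Scn3b and Kcnh7 lie right of it, as does Kcnh7 at 5.5DDC. Kcnmb1, Kcnma1 and Kcnj2 lie right of 0.

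Other genes of the pathway came from a list of channel partners, other channels and ion pumps. Of 39 tested among 47 listed, 12 (30.8%) were higher, 2 (5.13%) lower and 25 did not pass, where 9.21% of all genes were higher and 9.53% lower, and the median log2 fold change was 0.77. Both tested Kv4 partners rose, Dpp6 (log2 fold change 3.27, standard error 0.27, adjusted p = 0.000516) and Dpp10 (log2 fold change 4.81, standard error 1.16, adjusted p = 0.0207), which set the surface level and kinetics of Kv4 channels. The sodium leak channel gene Nalcn (log2 fold change 2.01, standard error 0.27, adjusted p = 0.0021) and its partner Unc80 (log2 fold change 1.88, standard error 0.31, adjusted p = 0.00499) rose, while the proton channel gene Hvcn1 fell (log2 fold change -1.73, standard error 0.31, adjusted p = 0.00626). Of 10 axon initial segment and Nav partner genes 4 rose: the adhesion gene Nrcam (log2 fold change 1.62, standard error 0.30, adjusted p = 0.00737) and the intracellular FGF genes Fgf11, Fgf12 and Fgf14, which bind Nav pores. Ank3, the ankyrin gene that clusters Nav channels, had means of 61.0 and 70.7 FPKM and did not pass (log2 fold change 0.19, standard error 0.15, adjusted p = 0.382). Of 11 pump and transporter genes 4 rose, among them Atp1b2 of the sodium pump, the calcium pump gene Atp2b2 and the sodium-calcium exchanger gene Slc8a1. Of the repressor complex that acts on neuronal channel genes, Rest did not pass (log2 fold change -0.19, standard error 0.25, adjusted p = 0.615) and its cofactor Rcor2 fell (log2 fold change -0.72, standard error 0.21, adjusted p = 0.0388). No gene of the Cav trafficking list passed.

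The genes that rose ranged widely in length, from 5.99 to 1135 kb in GENCODE M21, and 6 of the 23 were shorter than the median of all tested genes. Their median span was 194 kb, against 48.6 kb for the other 57 tested channel genes and 22.7 kb for all tested genes with a match (13735 of 14742). Kcnip4 spans 1135 kb (chr5:48389502-49524907) and Kcnma1 725 kb (chr14:23289431-24014491), whereas Scn2b spans 12.3 kb and Kcnmb1 10.6 kb (chr11:33963013-33973641). Whether reads were counted by strand is not given in the sources used here, and some of these genes share exonic bases with a gene on the opposite strand, to the extent of 39.6% for Kcna6 (with Gm26673), 16.0% for Cacnb4 and 12.2% for Kcnk2. Kcnmb4, which did not pass, likewise shares 20.8% of its exonic bases with Kcnmb4os2 and 10.7% with Kcnmb4os1 on the opposite strand. Reads of such partners cannot be told apart from those of the channel genes.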

How the data were processed

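Prominin-1-sorted cells of 9 libraries were sequenced as polyadenylated RNA (single-end reads of 50 bases). The authors aligned reads to the mouse genome GRCm38 with TopHat2 2.0.4, counted them with HTSeq 0.6.1 and deposited the result as a table of counts per symbol. These deposited values are handled like estimated counts, because the authors' table holds some that are not whole, and were rounded. The deposited FPKM come from Cufflinks 2.1.1. The authors also deposited log2 values from limma voom without normalization, which equal log2 CPM recomputed from the counts to within 5e-14. Strand setting and annotation release are not given in the sources used here.

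Counts of all genes were fitted in edgeR 4.0.16 (R 4.3.3) with TMM scaling, its filter on low counts (14742 genes kept) and 1 factor for the 3 time points, and compared by the quasi-likelihood test. Adjusted p-values are Benjamini-Hochberg over all tested genes, and 0.05 was the threshold. CPM are counts scaled by the library total alone. limma 3.58.1, which was also run on log2(FPKM + 1) and log2(FPKM + 0.1), and DESeq2 1.42.0 were alternatives, besides other scalings and filters, the replicate number as a block, only the 6 libraries compared, and each library left out. Fits without all replicate 1 libraries were added after seeing the data. Tables and figures were made with Python 3.11.15 and matplotlib 3.10.9. In simulated counts for 4.5DDC to 6.5DDC, 22% of 200 genes given a log2 change of 1 were recovered among 14518 genes and 87.5% of those given a change of 2 among 14516.

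The channel genes, the gene lists and the tests were chosen with earlier results of these data known. Values are given for up to 12 called genes per class and direction with the largest change, provided that the mean reached 0.5 FPKM at 1 of the 2 time points, the 4 with the highest mean in each class, the tested pore genes of the Scn and Cacna1 families, and members of a named subfamily that moved the other way. Others (Kcnj11, Kcnk5, Cacna2d1, Kcna5, Kcnn1, Kcnip1 and Kcnab2 among them) were named after their values were seen. Some genes are not reported here by name, and all counts include them. Same-numbered replicates deviated together between 4.5DDC and 5.5DDC (r over genes 0.74, 0.39 and 0.45 for numbers 1, 2 and 3) and between 5.5DDC and 6.5DDC (0.45, 0.37 and 0.20). Between 4.5DDC and 6.5DDC number 1 did (0.38), but numbers 2 and 3 did not (-0.04 and -0.22). Blocked counts therefore stand beside the single days, and those for 4.5DDC to 6.5DDC are given with this limit. Replicates 2 and 3 also deviated together across numbers. Their r was 0.29 and 0.39 between 4.5DDC and 5.5DDC, and 0.22 and 0.41 between 5.5DDC and 6.5DDC. Between 4.5DDC and 6.5DDC it was 0.46 and 0.49. Every pair of replicate 1 with another number had a negative r. The deviations were taken from the mean of the 3 libraries of each time point and so cancel out within it. The negative r of replicate 1 and the joint deviation of replicates 2 and 3 are therefore partly built in. Floors of 3 counts cover counting error only.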

Additional observations from a re-analysis of the deposited data

How the results depend on the processing

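Over the alternatives for the log2 fold changes from 4.5DDC to 6.5DDC of the genes named by rule, 715 values kept their direction and side of the threshold, 28 passed newly, 90 no longer passed and 24 changed sign, and the cause was not tested. These changes of sign were in 6 genes, none of them called with 9 libraries. When 1 library was left out, the log2 fold change ranged from -0.30 to 0.30 for Cacna1a, -0.13 to 0.56 for Cacna1g, -0.39 to 0.22 for Cacnb3, -0.028 to 0.38 for Cacng4, -0.030 to 0.52 for Cacng7 and -0.084 to 0.51 for Scn8a. For Cacna1g, Cacng4, Cacng7 and Scn8a the sign changed without replicate 3 of 6.5DDC, for Cacna1a without replicate 1 of 4.5DDC or of 6.5DDC, and for Cacnb3 without replicate 2 of 4.5DDC or replicate 1 or 2 of 6.5DDC. Cacna1a (-0.04 with 9 libraries) was also 0.034 with the replicate block, 0.0014 and 0.012 by limma on log2(FPKM + 1) and log2(FPKM + 0.1) and 0.49 with all 3 libraries of replicate 1 left out. Cacnb3 (-0.01 with 9 libraries) was 0.0045 with DESeq2 size factors, 0.00088 with no scaling, 0.027 with no filter, 0.031 with CPM of at least 1 in 3 libraries, 0.030 with only the 6 libraries compared, 0.0038 by DESeq2, 0.0079 and 0.0069 by these limma fits and 0.14 with all 3 libraries of replicate 1 left out. Scn8a was -0.12 and -0.17 by the same limma fits. Beyond the genes named by rule, Kcnab2 (0.09) and Scn4b (-0.03), not called with 9 libraries either, also changed sign with all 3 libraries of replicate 1 left out. The number of channel genes called from 4.5DDC to 6.5DDC (25) ranged from 10 to 35 over the fits that left out 1 library each, was 38 with the replicate block and 48 with all 3 libraries of replicate 1 left out. From 4.5DDC to 5.5DDC the count (1) ranged from 0 to 2 over those fits and was 2 with no filter, 0 with only the 6 libraries compared, 8 by DESeq2, 6 with the replicate block and 16 without replicate 1. From 5.5DDC to 6.5DDC the count (1) ranged from 0 to 3 and was 0 with only the 6 libraries compared, 0 by limma on log2(FPKM + 0.1), 6 by DESeq2, 8 with the replicate block and 20 without replicate 1. For 4.5DDC to 6.5DDC by class, potassium channel genes higher (16) ranged from 6 to 20 when 1 library was left out and were 27 without replicate 1, and those lower (2) ranged from 0 to 3 and were 1 with only the 6 libraries compared, 4 with the replicate block and 4 without replicate 1. Sodium channel genes higher (4) ranged from 2 to 5 and were 7 without replicate 1. Calcium channel genes higher (3) ranged from 1 to 7 and were 5 with no filter, 5 with only the 6 libraries compared, 5 by DESeq2, 7 with the replicate block and 10 without replicate 1. Between 4.5DDC and 6.5DDC, replicate 1 deviated together (r = 0.38) but numbers 2 and 3 did not (-0.04 and -0.22). Of the 25 calls, 9 passed in every fit without 1 library (Cacnb4, Kcnd3, Kcnj2, Kcnk2, Kcnma1, Kcnmb2, Kcnq5, Scn3a and Scn7a), and 8 of these, all but Kcnd3, passed in every alternative run. Calls lost under limma voom included Kcna1 (adjusted p = 0.0685), Kcnab1 (0.0512), Kcnh7 (0.0769) and Kcnip4 (0.0989). Those lost under limma on log2(FPKM + 1) included Cacna1d (0.0536), Kcna1 (0.0531), Kcnd3 (0.241), Kcnh7 (0.242) and Kcnn3 (0.148). At this depth, 53 of the 133 channel genes had too few counts to be tested.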
